A study of Passer montanus with 72 samples.

Results

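ALDH1A2, RARB and RLBP1 are genes of the retinoid pathway, which turns vitamin A into retinoic acid and carries its signal into the nucleus. They were chosen by name, with earlier results of these data known, as 3 of the 21957 genes of the count table. They were followed in 72 RNA libraries from the brains of 24 Eurasian tree sparrows (Passer montanus). Each bird was wild-caught and held captive, and gave 1 library from striatum, 1 from caudal hippocampus and 1 from rostral hippocampus. The striatum libraries came from 13 birds labelled male and 11 labelled female, and so did the libraries of each hippocampal part. The labels give no treatment, age or behaviour per bird, and the series names the caudal part dorsal hippocampus in its design text.

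Retinoic acid is made from retinol by stepwise oxidation, and the last step, from retinaldehyde, is done by enzymes such as ALDH1A2. The acid binds nuclear receptors of the RAR family, which act on DNA in pairs with RXR receptors, and RARB is itself a classical target gene of that signal. RLBP1 is a carrier protein for retinaldehyde, best known from the retinal pigment epithelium and Müller glia of the eye. In zebra finches ALDH1A2 is known from neurons of the song nucleus HVC, and in rodents Rarb is known from neurons of the striatum.

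The deposited table gives ALDH1A2 as gene 751771, on the plus strand at positions 6805805 to 6861648 of its sequence, and RLBP1 as gene 100226397, on the plus strand at 12823533 to 12829502 of the same sequence. RARB is gene 778446, on the plus strand at 38604871 to 38924876 of another sequence. The build of these positions is not named in the sources used here, and the counts are per gene, so they do not say which exons were read.

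Total counts ran from 2629433 to 5323201 per library, with a median of 4071234. Levels are given as CPM, counts scaled to library totals with TMM factors. The regions held their defining genes: all 16 medium spiny neuron markers tested were higher in striatum than in hippocampus, and all 13 pallial glutamatergic neuron markers were lower. The striatum library of bird 6, labelled female, stood apart, with a summed pallial marker level of 1335 CPM where the other 23 striatum libraries had 245.8 to 393.7 CPM. Its medium spiny neuron markers summed to 4197 CPM, against 5531 to 7096 CPM in the others. The striatum library of bird 11, labelled male, showed the smallest number of genes with a count, 7718. The 3 libraries of bird 260, labelled female, had no count of the W gene CHD1W, a gene with 101 to 216 counts in 30 libraries of the 10 other birds labelled female and with 0 to 3 counts in 39 libraries of males. Summed over all genes of the sequence that holds CHD1W, bird 260 had 22.96 to 27.98 CPM with totals unscaled. Birds labelled male had 8.58 to 47.12 CPM, and the other birds labelled female 1779.39 to 2330.58 CPM. By these W counts bird 260 lay with the males, against its label. Bird 260 stays in the group its label gives, and results between the sexes are given with and without it. Below, females are the birds labelled female, bird 260 included. In tissue RNA of this kind, fewer cells of a type and less RNA per cell cannot be told apart.

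All 3 genes were lower in striatum than in hippocampus. ALDH1A2 had 1.30 to 50.1 CPM in striatum (median 4.89), 10.6 to 72.7 CPM in caudal hippocampus (median 24.2) and 3.75 to 115.1 CPM in rostral hippocampus (median 15.8). The striatum values overlap with both hippocampal groups, and the highest striatum value belongs to bird 6, whose next highest neighbour in striatum is at 12.7 CPM. The log2 fold of striatum minus the mean of both hippocampal parts was -2.17 ± 0.27 (SE; adjusted p = 6.56e-10), and ALDH1A2 was lower in striatum in 23 of 24 birds. Without bird 6 the log2 fold was -2.32. Against each part alone it was -2.47 ± 0.30 for striatum minus caudal and -1.88 ± 0.30 for striatum minus rostral hippocampus.

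RARB, the receptor, had 3.43 to 33.6 CPM in striatum (median 11.3), 16.9 to 66.2 CPM in caudal hippocampus (median 36.6) and 26.6 to 111.9 CPM in rostral hippocampus (median 64.1). It was lower in striatum than in the hippocampal mean in all 24 birds, although the groups overlap across birds. The log2 fold was -1.91 ± 0.15 (adjusted p = 1.91e-17), and -1.98 without bird 6. The receptor was thus lower in the region where the medium spiny neuron markers were higher.

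RLBP1, the carrier, had no count in any of the 24 striatum libraries, 0 of 102492515 counts, which allows a level of up to 0.0293 CPM over the group. It had a count in 17 of 24 caudal and in 16 of 24 rostral libraries. With the totals unscaled and 3 counts set for the striatum group, RLBP1 was at least 406-fold lower in striatum than in caudal hippocampus and at least 34-fold lower than in rostral hippocampus. With the same limit, from the 24 striatum libraries of both sexes, the bound was 704-fold against the caudal libraries of males. Against those of birds labelled female, which held 22 counts, it was 20.8-fold. A limit from the striatum libraries of 1 sex would be higher, and its bound lower. These bounds cover only the counting error of the striatum group. The test of striatum against both parts gave an adjusted p of 3.39e-06. With 0 counts in striatum, RLBP1 passed the filter on low counts through hippocampal libraries alone, so this p is no separate support for the bounds. RLBP1 was lower in striatum in 22 of 24 birds, which are those with any count in hippocampus. It was at 0 in all 3 regions in the other 2.

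Region differences were common in these libraries. Of 10445 genes tested, 62.6% passed an adjusted p of 0.05 for striatum minus hippocampus, 61.2% for striatum minus caudal and 60.3% for striatum minus rostral hippocampus, so that 3 of 3 members passing is read against a high background. Of all genes tested, 95.7% had a smaller absolute log2 fold for striatum minus hippocampus than ALDH1A2 and 94.4% a smaller one than RARB. The genes were chosen with earlier results of these data known, so these ranks are a description only.

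**Figure D1:**
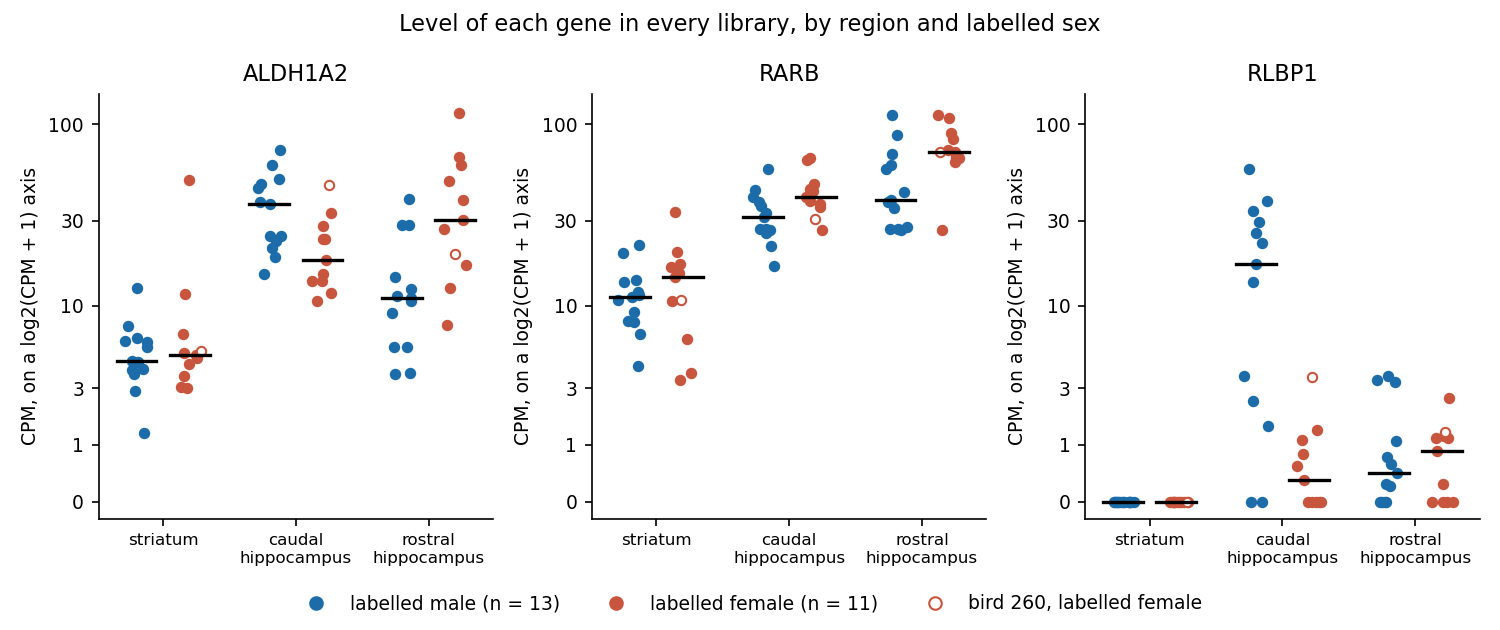
CPM of ALDH1A2, RARB and RLBP1 in every library (vertical axes, log2(CPM + 1) spacing), by region and labelled sex; each point is 1 bird and bars are group medians. RLBP1 lies at 0 in all 24 striatum libraries, and its caudal values reach 57.1 CPM in males and 3.6 CPM in birds labelled female.

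Between the hippocampal parts the genes differed in direction. RARB was lower in caudal than in rostral hippocampus in 21 of 24 birds, with a log2 fold of -0.69 ± 0.15 (adjusted p = 0.000134). RLBP1 was higher in the caudal part, with a log2 fold of 2.39 ± 0.76 (adjusted p = 0.0108), in 13 of 24 birds, and lower there in 9. ALDH1A2 did not pass the test with both sexes in 1 comparison, at 0.59 ± 0.29 (adjusted p = 0.0897), and was higher in the caudal part in 15 of 24 birds. It passed with DESeq2 (0.64, adjusted p = 0.0431), without bird 4 (0.73, adjusted p = 0.0279) and without bird 18 (0.74, adjusted p = 0.0281). Of 10445 genes tested, 45.6% passed for caudal minus rostral hippocampus.

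With the sexes pooled, the order of mean levels over regions for ALDH1A2 is caudal, rostral, striatum, with the first pair not separated beyond the spread. In birds labelled female the first pair is turned round, at 21.8 CPM in caudal and 40.5 CPM in rostral hippocampus on average. For RARB the order is rostral, caudal, striatum, with each neighbouring pair separated by its test. For RLBP1 it is caudal, rostral, striatum with the sexes pooled, each pair separated by its test, but in birds labelled female RLBP1 averaged 0.706 CPM in caudal and 0.781 CPM in rostral hippocampus. Per kilobase of gene model, mean levels in caudal hippocampus were 7.68 CPM for ALDH1A2, 8.66 CPM for RARB and 5.58 CPM for RLBP1.

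ALDH1A2 was lower in males than in birds labelled female in rostral hippocampus, and its difference between the hippocampal parts differed between the sexes. In caudal hippocampus males had 15.3 to 72.7 CPM (median 37.3) and birds labelled female 10.6 to 47.2 CPM (median 18.2). In rostral hippocampus males had 3.75 to 39.4 CPM (median 11.1) and birds labelled female 7.69 to 115.1 CPM (median 30.4). The ranges overlap in both parts. In the caudal part 12 of 13 males lay above the female median, and in the rostral part 1 of 13 did.

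Within birds, the caudal minus rostral difference of log2(CPM + 1) for ALDH1A2 had a median of 1.90 in males (-1.31 to 3.48) and a median of -1.03 in females (-2.97 to 1.51). The caudal part was higher in 11 of 13 males and in 4 of 11 females, of which bird 260 was 1. The interaction, the male minus female difference of caudal minus rostral, was 2.11 ± 0.50 on the log2 scale (adjusted p = 0.018). Without bird 260 it was 2.33 (adjusted p = 0.0139), and without bird 18, a female, it was 1.89 and no longer passed (adjusted p = 0.0552). Of 10445 genes tested, 2.30% passed this interaction.

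Taken sex by sex in the same fit, a contrast added after the data had been seen, ALDH1A2 was higher in the caudal than in the rostral part in males, at 1.54 ± 0.34 (adjusted p = 0.000569). In females the log2 fold was -0.57 ± 0.37 (adjusted p = 0.234), which passed only with limma voom (-1.0, adjusted p = 0.011) and was -0.78 without bird 260 (adjusted p = 0.118). Of all genes tested, 25.1% passed for caudal minus rostral in males and 37.0% in females.

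Compared between birds within the rostral part, ALDH1A2 was lower in males, at -1.51 ± 0.39 (adjusted p = 0.0203), where 5.29% of 9003 genes tested passed. The call was lost without bird 4, the female with the highest value (-1.21, adjusted p = 0.0628), and was kept without bird 260 (-1.58, adjusted p = 0.0143). Within the caudal part the male minus female log2 fold was 0.77 ± 0.26 (adjusted p = 0.133), where 2.69% of 8846 genes passed. It passed without bird 260, at 0.94 (adjusted p = 0.0267), whose 47.2 CPM was the highest caudal value among birds labelled female. Permutation tests on log2(CPM + 1), 2-sided and unadjusted, gave p = 0.00376 in the rostral and p = 0.0152 in the caudal part, among 8 such tests.

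In striatum ALDH1A2 had 1.30 to 12.7 CPM in males (median 4.55) and 3.02 to 50.1 CPM in birds labelled female (median 5.01), which overlap. The male minus female log2 fold was -0.80 ± 0.41 (adjusted p = 0.999), against 1.69% of 8750 genes passing, and was 0.02 without bird 6. For the difference between the sexes in striatum minus hippocampus, edgeR called no gene (0.00% of 10445), with 379 genes at an unadjusted p under 0.05, and DESeq2 and limma voom also called 0. ALDH1A2 was at 0.02 and RARB at 0.33 on the log2 scale in that interaction.

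RARB showed the same direction in both sexes. In caudal hippocampus males had 16.9 to 57.5 CPM (median 31.6) and birds labelled female 26.6 to 66.2 CPM (median 40.6). In rostral hippocampus males had 26.6 to 111.9 CPM (median 38.9) and birds labelled female 26.6 to 111.5 CPM (median 71.0). The ranges overlap in both parts, and 10 of 11 birds labelled female lay above the male median in the rostral part.

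The caudal minus rostral log2 fold of RARB was -0.56 ± 0.20 in males (adjusted p = 0.0322) and -0.83 ± 0.21 in females (adjusted p = 0.00194). The interaction was 0.27 ± 0.29 (adjusted p = 0.701). Without bird 260 the female value was -0.78 (adjusted p = 0.00706) and the interaction 0.24 (adjusted p = 0.785). The male call was lost when bird 8, 12, 17, 261 or 262 was left out, with adjusted p-values up to 0.0897, and was at -0.50 (adjusted p = 0.12) without birds 260, 261 and 262 together.

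The male minus female log2 fold of RARB was -0.59 ± 0.23 in rostral hippocampus (adjusted p = 0.134), -0.40 ± 0.17 in caudal hippocampus (adjusted p = 0.265) and -0.24 ± 0.29 in striatum (adjusted p = 0.999). None of the 3 passed, and without bird 260 they were -0.59, -0.44 and -0.27. The permutation tests gave RARB unadjusted p-values of 0.0183 in rostral hippocampus, 0.0292 in caudal hippocampus and 0.757 in striatum. The rostral value passed without bird 8 (-0.75, adjusted p = 0.0241) and without bird 22 (-0.68, adjusted p = 0.0364).

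**Figure D2:**
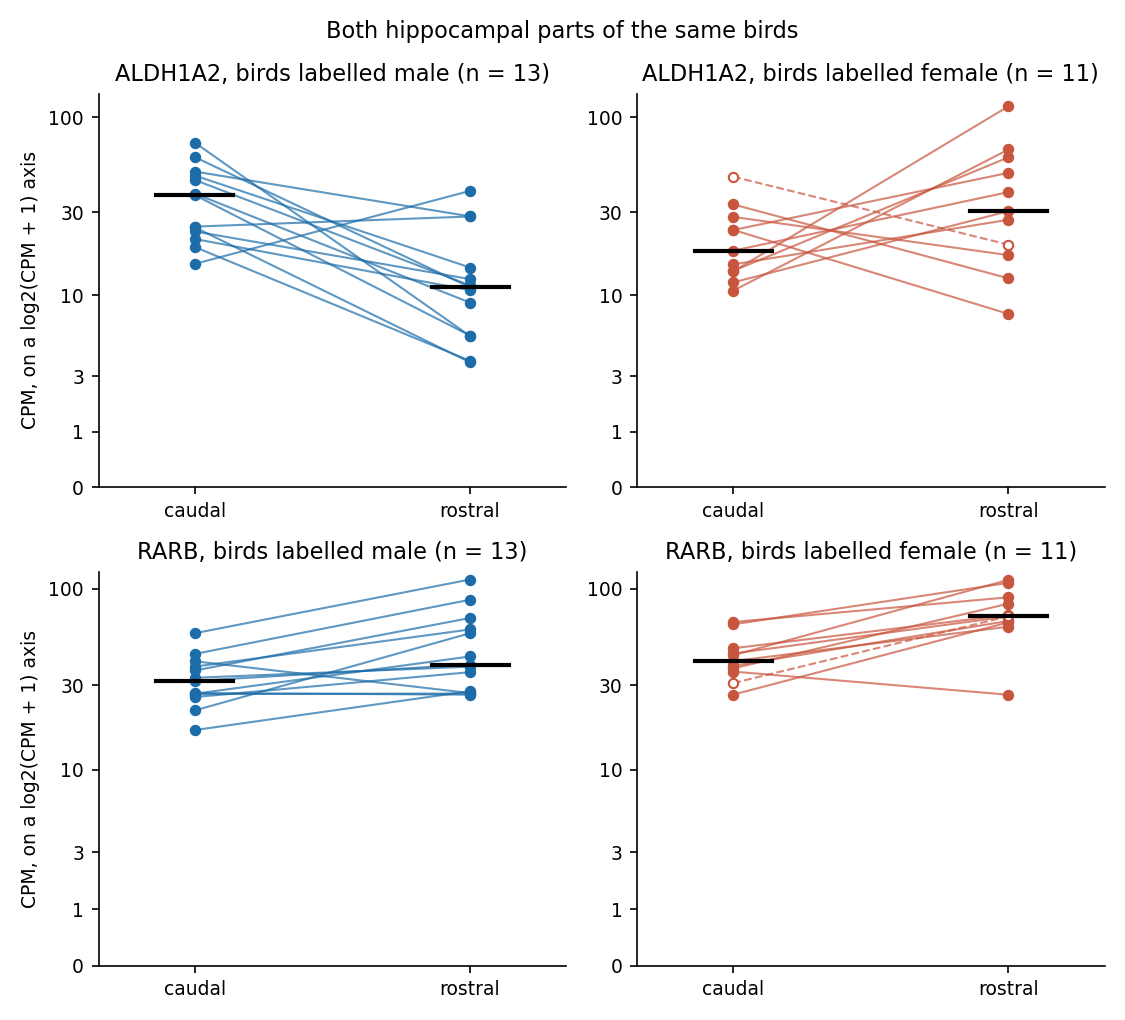
CPM of ALDH1A2 (top) and RARB (bottom) in caudal and rostral hippocampus of the same birds (vertical axes, log2(CPM + 1) spacing), males left and birds labelled female right; lines join the parts of 1 bird, bars are medians and the open symbol is bird 260. ALDH1A2 is higher in the caudal part in 11 of 13 males and 4 of 11 females, and RARB is lower there in 11 of 13 males and 10 of 11 females.

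RLBP1 was high in caudal hippocampus of most males and near 0 elsewhere. Caudal levels in males were 0 to 57.1 CPM (median 17.3) and in birds labelled female 0 to 3.6 CPM (median 0.310). Of 13 males, 9 lay above the highest bird labelled female, which was bird 260, and 11 above the highest of the other 10. Birds 261 and 262, labelled male, had no count. In rostral hippocampus males had 0 to 3.64 CPM (median 0.415) and females 0 to 2.53 CPM (median 0.855), and in striatum both sexes were at 0.

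The caudal counts of RLBP1 summed to 958 in males, or 20.6 CPM with totals unscaled, and to 22 in birds labelled female, or 0.610 CPM. RLBP1 did not pass the filter on low counts for the comparison of the sexes within a part. Without that filter, its male minus female log2 fold in caudal hippocampus was 4.86 ± 0.77 (adjusted p = 8.99e-05), where 2.03% of 14013 genes passed. In rostral hippocampus it was 0.41 ± 0.73 (adjusted p = 0.819), where 3.59% of 13899 genes passed. A 2-sided permutation test on log2(CPM + 1) in the caudal part gave an unadjusted p of 0.00062, and of 0.00045 without bird 260.

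Caudal minus rostral hippocampus gave RLBP1 a log2 fold of 3.85 ± 0.80 in males (adjusted p = 0.000668), with 10 of 13 males higher in the caudal part. In females it gave -0.37 ± 1.00 (adjusted p = 0.805), with 3 of 11 higher. The interaction between sex and part was 4.22 ± 1.33 and did not pass (adjusted p = 0.085). It passed with limma voom (4.34, adjusted p = 0.0171), without bird as a block (4.42, adjusted p = 0.0326) and without bird 8 (4.40, adjusted p = 0.0497), and was at 4.64 without bird 260 (adjusted p = 0.0946).

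RLBP1 moved with TTR in caudal hippocampus of males. TTR is the gene of transthyretin, a protein made in quantity by choroid plexus that carries thyroid hormone and retinol-binding protein. In caudal hippocampus TTR had 1.73 to 2554 CPM in males (median 695.7) and 1.14 to 67.0 CPM in birds labelled female (median 6.32). The 9 libraries with the most RLBP1, all of males, had 397.7 to 2554 CPM of TTR. The males with 0 RLBP1, birds 261 and 262, had 6.24 and 8.45 CPM of TTR.

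Of the 12 ependyma and choroid plexus markers matched, CLIC6, PIFO and CFAP126 had no count in any library. The summed level of the list in caudal hippocampus was 119.6 to 2779 CPM in males and 104.8 to 293.5 CPM in birds labelled female. Without TTR the sum was 120.0 to 267.8 CPM in the 9 libraries with the most RLBP1 and 102.9 to 264.9 CPM in the other caudal libraries, which overlap. That sum holds ependyma as well as choroid plexus genes. Of 7 listed markers tested, TTR included, 4 were higher and 1 lower in caudal than rostral hippocampus in males, where 25.1% of all genes passed. In females 3 were higher and 1 lower, where 37.0% passed. The median log2 fold of the list was 2.03 in males and 1.48 in females. Of the choroid plexus markers, OTX2 was at 0 in 10 of the 24 caudal libraries and KCNJ13 in 17, among them all 11 of birds labelled female. TTR itself was at 0 in 20 of 24 striatum libraries, and 0 to 8.45 CPM in rostral hippocampus. The part of choroid plexus RNA in the RLBP1 result was not tested.

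**Figure D3:**
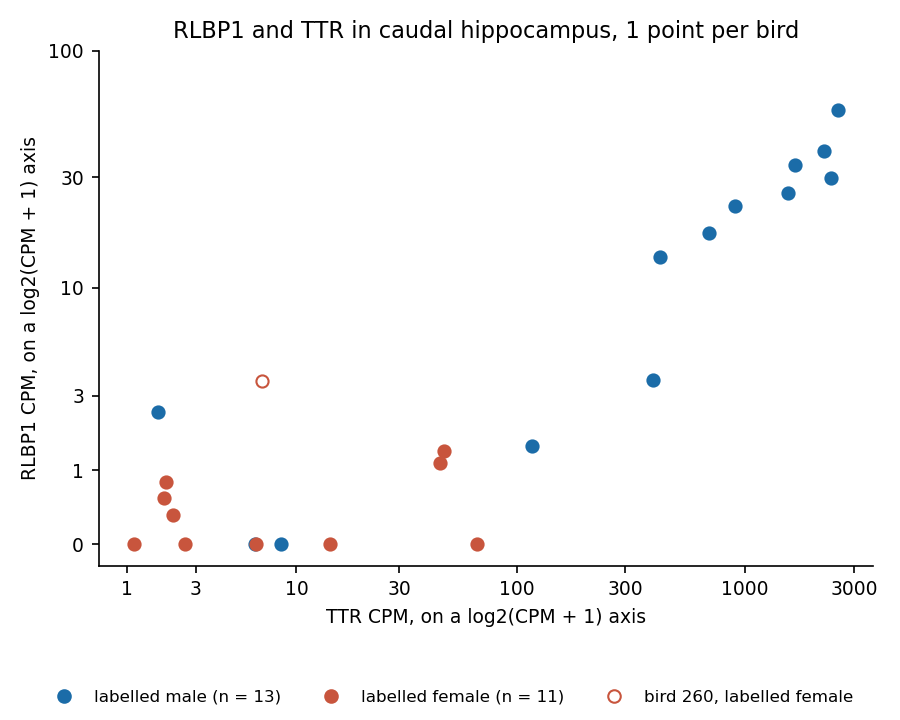
RLBP1 (vertical axis) against TTR (horizontal axis), in CPM on log2(CPM + 1) spacing, in the caudal hippocampus library of each bird. The males with 13.6 to 57.1 CPM of RLBP1 have 427.7 to 2554 CPM of TTR, and no bird labelled female exceeds 67.0 CPM of TTR.

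ALDH1A2 and RARB were also compared with marker sums. Vascular and meningeal markers, since meninges are a known source of ALDH1A2 in rodents, had median sums of 167.9 CPM in striatum, 189.0 CPM in caudal and 184.8 CPM in rostral hippocampus. In the caudal part they were at 203.2 CPM in males and 177.8 CPM in birds labelled female, and in the rostral part at 183.2 CPM in males and 186.2 CPM in females. Pallial glutamatergic markers had medians of 287.8 CPM in striatum, 3426 CPM in caudal and 3527 CPM in rostral hippocampus. Astrocyte and radial glia markers had medians of 4899 CPM in striatum, 6826 CPM in caudal and 7487 CPM in rostral hippocampus, and in the rostral part 8036 CPM in males and 7274 CPM in birds labelled female. Oligodendrocyte markers had medians in the caudal part of 470.1 CPM in males and 324.9 CPM in birds labelled female, and in the rostral part of 300.1 CPM in males and 399.4 CPM in birds labelled female. Medium spiny neuron markers had medians in the caudal part of 663 CPM in males and 607.5 CPM in birds labelled female, and in the rostral part of 568.1 CPM in males and 596 CPM in birds labelled female. Ependyma and choroid plexus markers had medians in the caudal part of 837.2 CPM in males and 211.6 CPM in birds labelled female, and in the rostral part of 205.8 CPM in males and 234.9 CPM in birds labelled female. By medians alone, the vascular, oligodendrocyte, medium spiny neuron and choroid plexus lists were ordered between the sexes as ALDH1A2 was. The astrocyte and pallial lists ran the other way in both parts, and the GABAergic list was lower in males in both. Caudal medians in males and birds labelled female were 6662 and 7186 CPM (astrocyte), 3296 and 3473 CPM (pallial), and 2106 and 2222 CPM (GABAergic). Rostral ones were 3536 and 3502 CPM (pallial), and 2250 and 2419 CPM (GABAergic). The ranges of males and birds labelled female overlapped for every list in both parts, so these orders describe medians only. The rostral medians lay close together for the vascular list (183.2 and 186.2 CPM) and the pallial list. The choroid plexus sums include TTR, which had r = 0.005 with ALDH1A2 over all libraries with the region means taken off. That value pools striatum and rostral libraries, where TTR was at or near 0, so it does not describe the caudal part. There birds 2, 9 and 20, with 2230 to 2554 CPM of TTR, had 47.9 to 72.7 CPM of ALDH1A2. Birds 260, 261 and 262 had 45.3 to 50.4 CPM of ALDH1A2 with 6.24 to 8.45 CPM of TTR. GABAergic interneuron markers had medians of 4184 CPM in striatum, 2128 CPM in caudal and 2277 CPM in rostral hippocampus. The part of these cell groups in the ALDH1A2 and RARB values was not tested.

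Levels were then correlated over the 24 birds on log2(CPM + 1), in 9 relations between ALDH1A2 and RARB or between regions. The permutation p-values were 2-sided and adjusted over the 9. The 24 birds pool both sexes, so differences in level between the sexes enter these values. RARB in caudal hippocampus rose with RARB in rostral hippocampus (Pearson r = 0.67, adjusted p = 0.00121; Spearman rho = 0.701, adjusted p = 0.000945). Without the 2 birds farthest from the median r was 0.61. Within males r was 0.644 and within females 0.469, and neither passed alone (adjusted p = 0.0775 in males and 0.276 in females).

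ALDH1A2 went the other way between the parts, with r = -0.548 (adjusted p = 0.0181) and rho = -0.536 (adjusted p = 0.0237), and r = -0.494 without the 2 farthest birds. Within females r was -0.644 and within males -0.131, with adjusted p = 0.18 and 0.689, so the relation was not held within males. Bird 4, labelled female, had 13.8 CPM in the caudal part and 115.1 CPM in the rostral part, the highest rostral value.

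The enzyme and the receptor were related with opposite signs in the parts. In rostral hippocampus ALDH1A2 and RARB had r = 0.704 (adjusted p = 0.00121) and rho = 0.774 (adjusted p = 0.00018), r = 0.72 without the 2 farthest birds, 0.644 within males and 0.548 within females. In caudal hippocampus they had r = -0.475 (adjusted p = 0.035) and rho = -0.476 (adjusted p = 0.0445), r = -0.576 without the 2 farthest birds, -0.123 within males and -0.623 within females. The caudal relation did not pass on CPM without the log (r = -0.386, adjusted p = 0.0933). No within-sex value of either part passed after adjustment. In striatum r was 0.268 (adjusted p = 0.268) and rho 0.0087 (adjusted p = 0.969), and r was -0.109 without the 2 farthest birds. On CPM without the log, where bird 6 lies far from the others, the striatum r was 0.631 (adjusted p = 0.0455).

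**Figure D4:**
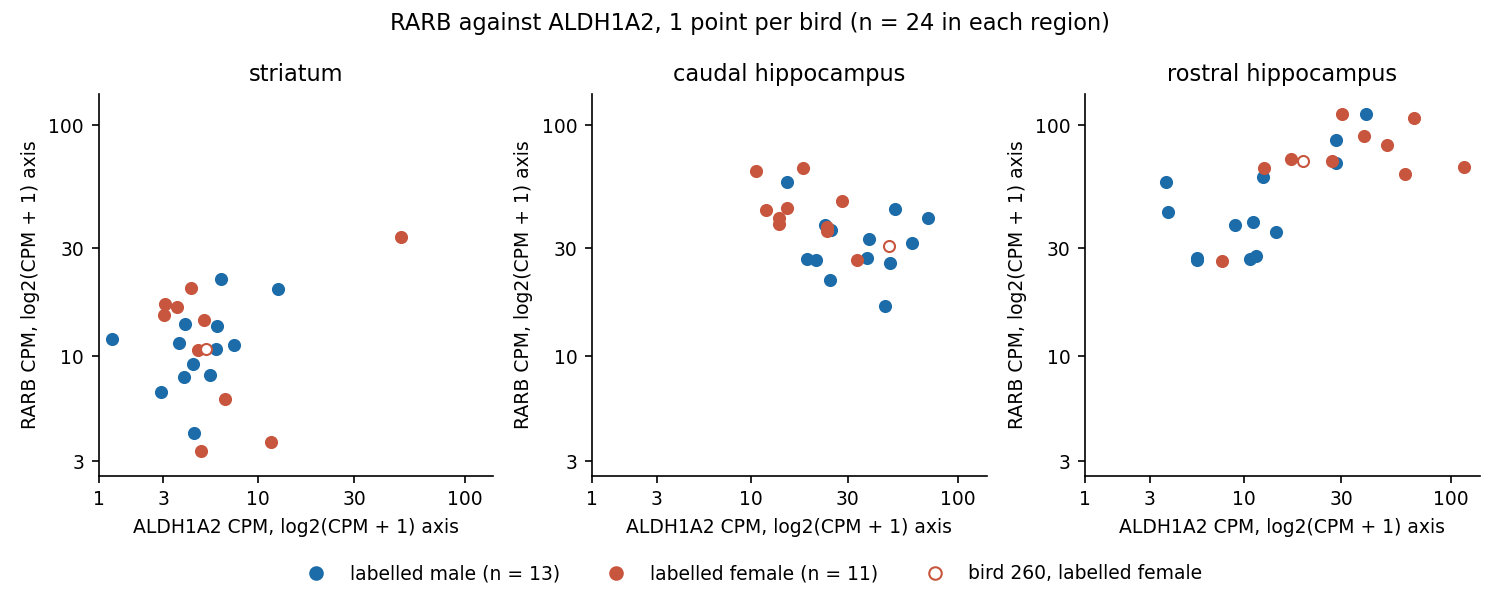
RARB against ALDH1A2 in CPM (both axes on log2(CPM + 1) spacing), 1 point per bird, in striatum, caudal and rostral hippocampus. The rostral points rise together (r = 0.704), the caudal points fall (r = -0.475), and the striatum point at 50.1 CPM of ALDH1A2 is bird 6.

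Of the remaining relations, ALDH1A2 in striatum and in rostral hippocampus had r = 0.461 (adjusted p = 0.035), which fell to 0.255 without the 2 farthest birds, with rho = 0.314 (adjusted p = 0.212). It rests on those birds. The other 3 relations did not pass.

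On the log2 CPM scale, region took 47.2% of the variance of ALDH1A2, 68.9% of that of RARB and 33.8% of that of RLBP1, where the median gene tested had 21.4%. The interaction of sex and region took 10.9% for ALDH1A2, 1.03% for RARB and 16.3% for RLBP1, where the median gene had 1.72%. Birds within a sex took 14.5% for ALDH1A2, 12.3% for RARB and 12.5% for RLBP1, against 28% in the median gene.

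Other genes of the pathway were taken from lists by role, 66 genes in all, of which 52 were matched by symbol, 48 had a count and 35 were tested over the 72 libraries. In striatum minus hippocampus 13 of the 35 were higher and 14 lower, with a median log2 fold of -0.01. In caudal minus rostral hippocampus 9 were higher and 8 lower, with a median of 0.15. Of all genes tested, 62.6% and 45.6% passed in either direction in these comparisons, and the median log2 fold was -0.045 and 0.022. The 3 CYP26 enzymes listed, which break down retinoic acid, were not matched by symbol, so they were not tested.

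Among genes of synthesis and retinal chemistry, 3 of 8 tested were higher and 3 lower in striatum, where 62.6% of all genes passed. RDH10, which makes retinaldehyde from retinol, averaged 35.7 ± 9.79 CPM in striatum, 16.6 ± 5.02 CPM in caudal and 22.8 ± 13.3 CPM in rostral hippocampus (SD, n = 24 each), a log2 fold of 0.93 ± 0.12 for striatum minus hippocampus (adjusted p = 2.15e-09). LRAT, which stores retinol as an ester, was also higher in striatum, at 1.48 ± 0.27. ALDH1A3, a further retinaldehyde dehydrogenase, was lower in striatum, at -1.23 ± 0.35, and averaged 2.24 ± 1.44 CPM or less in each region. ALDH1A1, the third such enzyme, had 1 count in all libraries. ALDH8A1, an aldehyde dehydrogenase on the same list, was higher in striatum, at 0.65 ± 0.19 (adjusted p = 0.00287).

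Between the hippocampal parts, RDH10 was lower in the caudal part (-0.38 ± 0.15, adjusted p = 0.0335), a call lost in 11 of 33 alternatives. Within rostral hippocampus RDH10 was lower in males, at 15.9 ± 5.59 CPM against 30.9 ± 15.3 CPM in birds labelled female (SD, n = 13 and 11), a log2 fold of -0.95 ± 0.23 (adjusted p = 0.0114). Both ALDH1A2 and RDH10 were lower in rostral males, as 2 of the 4 genes of this list tested there, where 5.29% of all genes passed. ALDH8A1 was higher in caudal than rostral hippocampus, at 1.08 ± 0.23 (adjusted p = 0.000159), in males (0.94) and in females (1.24). The call in males was lost when bird 7, 8, 15, 16 or 17 was left out, with adjusted p-values up to 0.0931.

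Among binding and transport genes 4 of 6 tested were lower in striatum and none was higher, where 62.6% of all genes passed in either direction. FABP5, a fatty acid binding protein that also binds retinoic acid, averaged 13.3 ± 6.72 CPM in striatum, 62.8 ± 16.1 CPM in caudal and 52.4 ± 14.2 CPM in rostral hippocampus (SD, n = 24 each), a log2 fold of -2.14 ± 0.16 (adjusted p = 4.35e-18). RBP5, a cellular retinol binding protein, was at -1.73 ± 0.28. CRABP1, which binds retinoic acid in the cytoplasm, was at -1.43 ± 0.45, with only 360 counts over the 72 libraries. The 4th was RLBP1. In caudal minus rostral hippocampus RLBP1, RBP4 (1.47 ± 0.50) and CRABP1 (1.24 ± 0.46) were higher and none was lower. These are 3 of 6 tested, near the 45.6% of all genes that passed there in either direction. The RBP4 call was lost without birds 260, 261 and 262 (adjusted p = 0.0548) and the CRABP1 call without bird 13 (adjusted p = 0.0534). RBP4, the plasma retinol carrier that TTR binds, averaged 1.28 ± 1.98 CPM in caudal, 0.396 ± 0.601 CPM in rostral hippocampus and 1.05 ± 1.25 CPM in striatum. CRABP2, RBP2, RDH5 and RDH8 had no count.

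The receptors split. In striatum RARA (0.63 ± 0.08) and RARG (0.67 ± 0.16) were higher, while RARB, RXRA (-1.48 ± 0.14) and RXRG (-3.02 ± 0.47) were lower. RXRG had only 300 counts over the 72 libraries, against 8855 of RXRA. RARA averaged 162.3 ± 27.5 CPM in striatum, 129.9 ± 31.7 CPM in caudal and 86.6 ± 26.8 CPM in rostral hippocampus (SD, n = 24 each), and RXRA averaged 13.4 ± 4.75 CPM, 28.5 ± 10.7 CPM and 47.7 ± 16.1 CPM in the same regions. RARB and RXRA thus both ran from rostral over caudal hippocampus to striatum in falling order of mean level, and RARA in rising order. Caudal minus rostral hippocampus was 0.60 ± 0.10 for RARA and -0.71 ± 0.14 for RXRA.

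RARA and RXRA also passed the interaction of sex and hippocampal part, at 0.64 ± 0.18 (adjusted p = 0.0454) and 0.90 ± 0.26 (adjusted p = 0.0487), and each call was lost in 18 of 32 alternatives. In rostral hippocampus RXRA was at 38.6 ± 13.4 CPM in males and 58.6 ± 12.0 CPM in birds labelled female (SD, n = 13 and 11), a log2 fold of -0.60 ± 0.16 (adjusted p = 0.0273), a call lost in 4 of 30 alternatives. In caudal hippocampus it was at 30.9 ± 10.9 CPM in males and 25.7 ± 10.1 CPM in females, a log2 fold of 0.26 ± 0.20 (adjusted p = 0.606).

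Of 8 coactivators and corepressors tested, 6 were higher in striatum, mostly by small amounts, where 62.6% of all genes passed in either direction. NCOA3, a coactivator, was higher at 1.27 ± 0.07. In caudal minus rostral hippocampus CREBBP was higher (0.30 ± 0.06), and MED1 (-0.28 ± 0.11) and NCOR1 (-0.20 ± 0.07) were lower. The MED1 call was lost in 5 of 33 alternatives.

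Of 10 retinoic acid responsive genes tested, RARB among them, 2 were higher and 4 lower in striatum, near the 62.6% of all genes that passed. MEIS2, a homeobox factor known from striatal neurons, averaged 1411 ± 226 CPM in striatum, 497.2 ± 97.8 CPM in caudal and 324.1 ± 106 CPM in rostral hippocampus (SD, n = 24 each), a log2 fold of 1.83 ± 0.08 for striatum minus hippocampus. MEIS1 was at 1.02 ± 0.10. RARRES1 (-1.68 ± 0.43), with only 296 counts over the 72 libraries, and RAI14 (-1.13 ± 0.11) were lower. In caudal minus rostral hippocampus MEIS1 (0.61 ± 0.12) and MEIS2 (0.65 ± 0.10) were higher, with RAI2 (0.31 ± 0.10), while DUSP6 (-0.47 ± 0.09), RAI1 and RARB were lower.

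Within rostral hippocampus MEIS1 (-0.70 ± 0.19) and MEIS2 (-0.60 ± 0.14) were lower in males. The MEIS1 call was lost when bird 4, 18 or 19 was left out, with adjusted p-values up to 0.0596. MEIS2 passed the interaction of sex and part at 0.65 ± 0.18 (adjusted p = 0.0376), lost in 14 of 32 alternatives, and MEIS1 was at 0.64 ± 0.22 (adjusted p = 0.0921). In caudal hippocampus RAI14 was higher in males, at 30.8 ± 7.62 CPM against 17.9 ± 8.23 CPM in birds labelled female (SD, n = 13 and 11), a log2 fold of 0.79 ± 0.19 (adjusted p = 0.0149). It was the 1 of 27 pathway genes tested there to pass, against 2.69% of all genes. RAI14 ran the same way in striatum (0.86 ± 0.23, adjusted p = 0.053) and in rostral hippocampus (0.49 ± 0.17, adjusted p = 0.0984), without passing. In rostral hippocampus 5 of 26 passed, ALDH1A2, RDH10, RXRA, MEIS1 and MEIS2, all lower in males, against 5.29% of all genes (301 higher and 175 lower). In striatum none of 27 passed, against 1.69% of all genes.

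**Figure D5:**
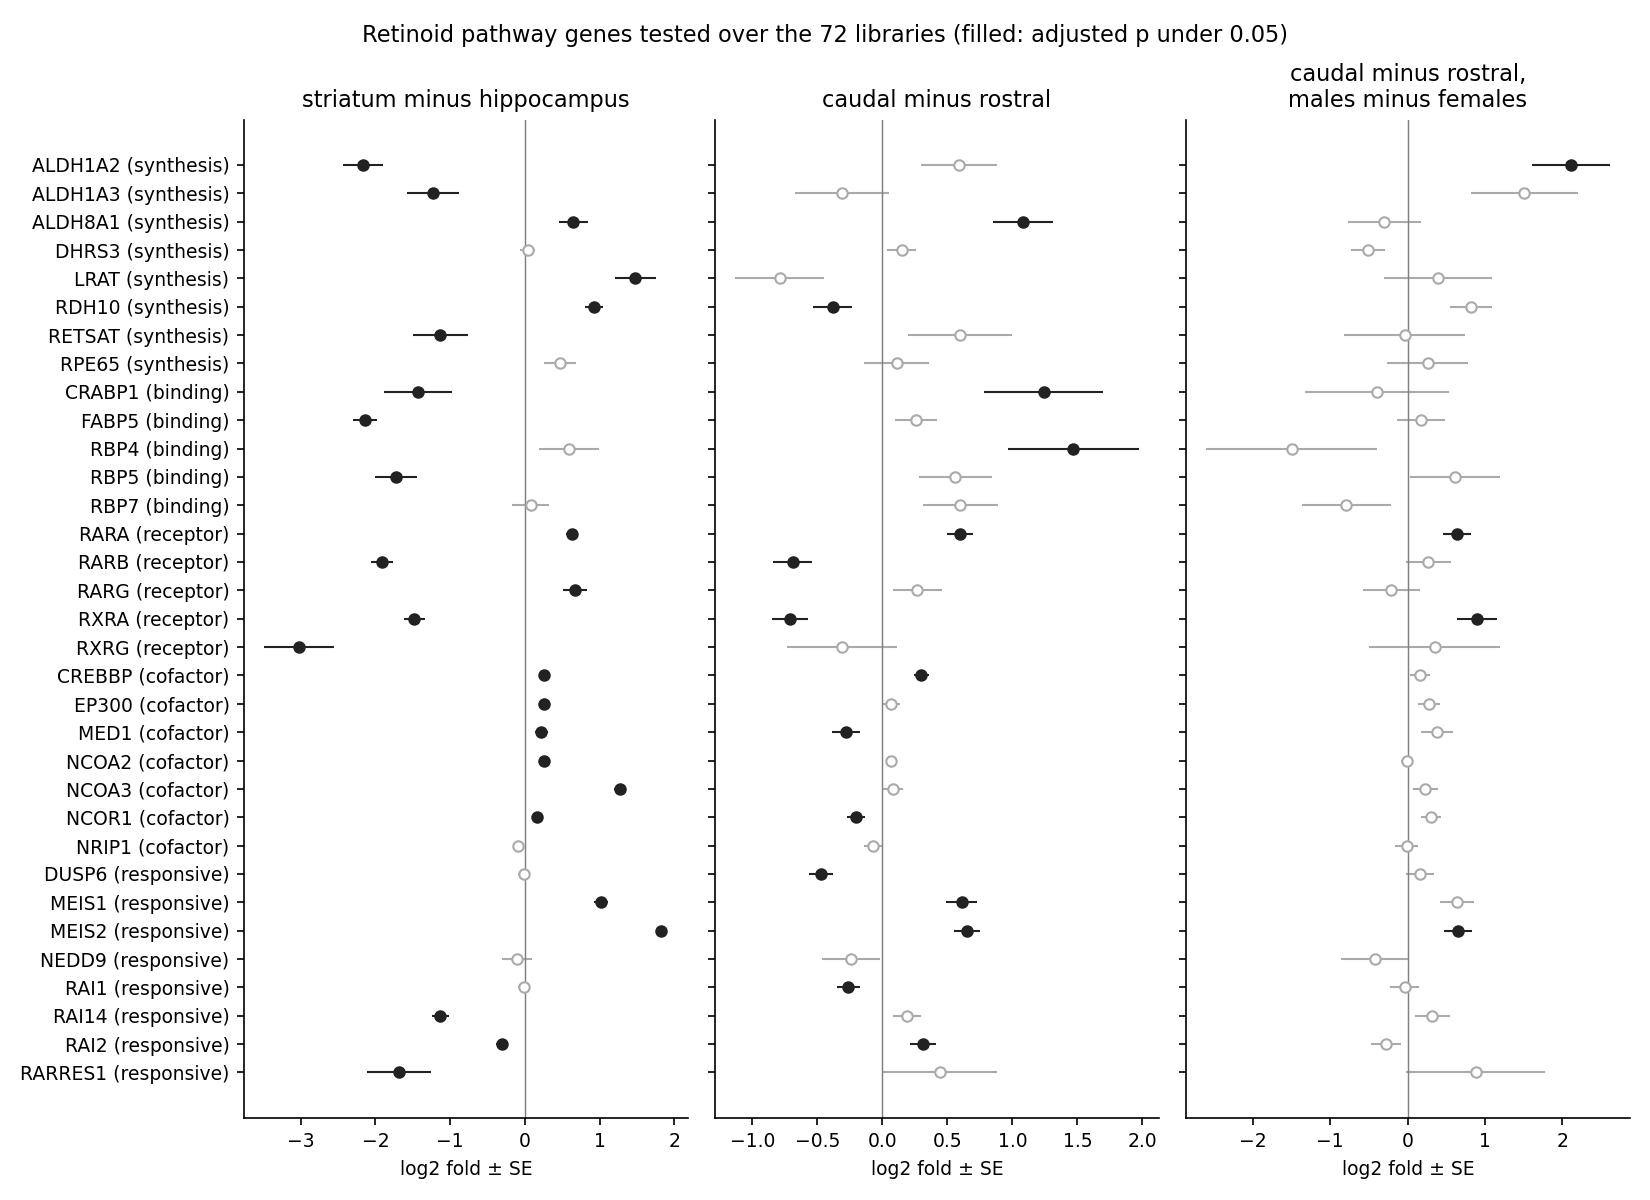
Log2 fold ± SE (horizontal axes) of pathway genes tested over the 72 libraries, by role, for striatum minus hippocampus, caudal minus rostral hippocampus and the male minus female difference of caudal minus rostral; filled symbols passed an adjusted p of 0.05, and RLBP1 is left out because striatum held no count. ALDH1A2 lies at 2.11 in the right panel, where RARA, RXRA and MEIS2 are the other genes that passed.

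The genes whose levels ran most like each member over the 72 libraries are given as a description, among 9156 genes with a symbol and a mean of at least 1 CPM. Among the 5 for ALDH1A2 were CBLN2 (Pearson r = 0.804), UTS2B (0.802), CDH22 (0.802) and SERPINE2 (0.801). Among the 5 for RARB were SATB1 (0.881), DSCAM (0.878), CTNNBIP1 (0.852) and PRICKLE1 (0.849). For RLBP1 they were TTR (0.83), CHAD (0.796), IGFBP7 (0.658), ACKR3 (0.640) and PROCA1 (0.624). The libraries share birds and differ in region, so these values reflect the region means too.

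With the region means taken off, the 5 genes most like ALDH1A2 included CDH9 (r = 0.708), CBLN2 (0.658), ROBO2 (0.654) and DACH2 (0.643). For RARB they were DLG1 (0.686), CRHR2 (0.604), CIT (0.600), TJP1 (0.590) and SATB1 (0.589). For RLBP1 they were TTR (0.789), CHAD (0.763), ACKR3 (0.646), SLC13A4 (0.595) and SOD3 (0.579). TTR had r = 0.005 with ALDH1A2 and -0.240 with RARB on that scale, which pools regions where TTR was at or near 0. SATB1 was thus near RARB, and CBLN2 near ALDH1A2, on both scales.

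The strand setting of the counting is not given, so counts of neighbours that touch on opposite strands cannot be told apart. LOC115496624 overlaps ALDH1A2 on the minus strand and had 20 counts in all libraries, against 6012 of ALDH1A2. TOP2B, a DNA topoisomerase on the minus strand, ends 62 bases from the end of RARB and had 123083 counts, against 10940 of RARB. TOP2B moved the other way, at 0.16 on the log2 scale for striatum minus hippocampus, where RARB was at -1.91. THRB, the thyroid hormone receptor on the other side of RARB, was at -0.49 and NR1D2 beyond it at -0.34.

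Near RLBP1, FANCI lies 1557 bases before it and ABHD2 1954 bases after it, both on the minus strand. ABHD2 was at 0.17 for striatum minus hippocampus and -0.37 for caudal minus rostral hippocampus, against 2.39 for RLBP1 in the caudal comparison, and FANCI passed in neither comparison. MFGE8, the next gene, was higher in striatum at 1.38. AQP9, 7433 bases before ALDH1A2, was at 0.01 for striatum minus hippocampus and -0.70 for caudal minus rostral hippocampus, where ALDH1A2 was at 0.59. LOC100219752, 79383 bases after ALDH1A2, was lower in striatum, at -1.17 (adjusted p = 3.22e-08), and lower in the caudal part, at -0.52 (adjusted p = 0.017). None of the neighbours tested passed the interaction of sex and part, in which ALDH1A2 was at 2.11.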

How the data were processed

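Whole-number counts per gene were used as deposited by the authors, for 72 libraries of total RNA. The tools HISAT2 and StringTie are named without versions, per the submitters' processing notes. Which tool counted the reads, with which strand setting and on which genome build, is not given in the sources used here. Both the gene lists and the 3 genes were chosen with earlier results of these data known.

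Genes were filtered with filterByExpr (minimum count 10, minimum total 15), scaled by TMM and tested with edgeR 4.0.16 in R 4.3.3 by the quasi-likelihood test, with Benjamini-Hochberg adjustment over all genes tested and a threshold of 0.05. Region comparisons and their interaction with sex were fitted over all 72 libraries with bird as a block. Libraries were paired by the bird number in each label. Deviations from group means had a median correlation of 0.128, 0.145 and 0.145 within birds for the 3 pairs of regions, and at most -0.00299 between birds. Sex was tested per region over 24 libraries. Each bird gave 1 library per region, so p-values of the sex tests within a region measure the spread between birds. In the fits with bird as a block they rest on the spread left once the level of each bird is taken off. Intervals from counts cover counting error only. Among 399 pairs of libraries of 1 group the lowest chi-square per degree of freedom was 5.875, and none was counted as a repeat.

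The caudal minus rostral contrasts within each sex and the permutation tests (100000 resamples) on log2(CPM + 1), a pseudocount of 1, were added after the data had been seen. Alternatives used DESeq2 1.42.0, limma 3.58.1 voom, other scalings and filters, no block, and each bird left out in turn. Permutations and summaries used Python 3.11.15, numpy 2.4.6, pandas 2.3.3 and scipy 1.17.1. The model was tested on simulated data with 200 genes changed. At a log2 change of 2 it recovered 100% of 100 genes for caudal minus rostral hippocampus and 92% of 100 for the interaction with sex, and at 1 it recovered 90% and 55%. Of the genes left unchanged, 11 and 8 were called. The simulated libraries had 1 mean per gene and a spread set by level, with no differences between birds. These shares therefore do not cover the spread between real birds.

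Named were the 3 genes, up to 4 called genes per role list and comparison with the largest absolute log2 fold, the 5 genes most correlated with each member, and its 2 neighbours on each side. A few genes that this rule selects are not reported here. Other pathway genes named were chosen after their values were seen. A search of promoters for receptor motifs was not run, since no sequence was used here.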

Additional observations from a re-analysis of the deposited data

Results flagged for a closer look

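The caudal minus rostral difference in hippocampus differed between males and birds labelled female for 4 of the pathway genes, by the test of that difference over all 72 libraries. These were among 35 pathway genes tested, and 2.30% of all genes tested passed. For ALDH1A2 the male minus female difference was 2.11 ± 0.50 on the log2 scale (adjusted p = 0.018), and the call was lost in 1 alternative, without bird 18. For RARA it was 0.64 ± 0.18 (adjusted p = 0.0454) and for RXRA 0.90 ± 0.26 (adjusted p = 0.0487), and each call was lost in 18 of 32 alternatives. For MEIS2 it was 0.65 ± 0.18 (adjusted p = 0.0376), and the call was lost in 14 of 32 alternatives. RARA averaged in the caudal part 143.4 ± 35.2 CPM in males and 114.0 ± 17.7 CPM in birds labelled female, and in the rostral part 77.9 ± 24.2 CPM in males and 96.9 ± 27.0 CPM in birds labelled female (SD, n = 13 and 11).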

How the results depend on the processing

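The striatum comparisons of ALDH1A2, RARB and RLBP1 kept direction and call in all alternatives run. With no replicate block ALDH1A2 was at -2.0 and RARB at -1.95 for striatum minus hippocampus and ALDH1A2 at 0.19 for caudal minus rostral hippocampus, while RLBP1 did not pass the filter in that region fit. Leaving out the block changed no call of these genes other than those named here. With DESeq2, ALDH1A2 was at 0.64 for caudal minus rostral hippocampus, 452 genes passed the interaction of sex and hippocampal part, and the male minus female value of ALDH1A2 in striatum was 0.04. With no replicate block 144 genes passed that interaction, RLBP1 was at 4.42 in it, and ALDH1A2 was at -0.41 for the sexes in striatum minus hippocampus. With limma voom these were 4.34 and -0.22, and ALDH1A2 was at -1.0 for caudal minus rostral in females. Without birds 260, 261 and 262 ALDH1A2 was at -0.09 for the sexes in striatum minus hippocampus and RARB at -0.50 in males. Permutation tests, chosen after seeing the data, gave male minus female 0.73 (unadjusted p = 0.0152) for ALDH1A2 in caudal hippocampus. For RARB they gave -0.40 (0.0292) in caudal and -0.66 (0.0183) in rostral hippocampus. The edgeR tests gave unadjusted p-values of 0.00605, 0.0229 and 0.0155 for these comparisons, in that order. The edgeR values did not pass after adjustment over all genes, and the permutation p-values were not so adjusted.

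Leaving out each bird in turn, ALDH1A2 ran from 0.46 to 0.74 for caudal minus rostral hippocampus, from 1.89 to 2.37 for its interaction with sex, and from -0.08 to 0.43 for the sexes in striatum minus hippocampus. RLBP1 ran from 3.83 to 4.71 in the interaction, and RARB from -0.63 to -0.48 in males. Male minus female, ALDH1A2 ran from 0.64 to 0.94 in caudal hippocampus, -1.73 to -1.21 in rostral hippocampus and -0.96 to 0.02 in striatum, and RARB from -0.75 to -0.52 in rostral hippocampus. Genes passing ran from 76 (without bird 7) to 598 (without bird 8) for the interaction, from 310 (without bird 18) to 951 (without bird 22) for the sexes in rostral hippocampus, and from 136 to 226 (without bird 260) in striatum. Striatum against each part alone was not run with birds left out. The causes were not tested.

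On CPM without the log, ALDH1A2 and RARB had r = 0.631 in striatum, which then passed (adjusted p = 0.0455), and -0.386 in caudal hippocampus, which no longer did (0.0933), nor did ALDH1A2 between striatum and rostral hippocampus (0.401, adjusted p = 0.0839). Within males and within females, r was -0.123 and -0.623 for ALDH1A2 with RARB in caudal and 0.644 and 0.548 in rostral hippocampus. For ALDH1A2 it was 0.296 and 0.546 between striatum and rostral hippocampus and -0.131 and -0.644 between the hippocampal parts, and for RARB 0.644 and 0.469 between the parts. Within males it was 0.222 for ALDH1A2 between striatum and caudal hippocampus and 0.192 for RARB between striatum and rostral hippocampus. Of 86 named pathway results 72 kept their call, 14 lost it in some alternative and 0 reversed. Scaling by library totals alone moved the median of all genes by -0.107 for striatum minus hippocampus. Depth limits RLBP1 most, at 0 to 19 counts per rostral library.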
